A study of Mus musculus with 4 samples.

Results

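Integrin and laminin subunits were described in ovaries of mouse embryos at E13.5. They were found by symbol in the table of counts per gene, as the numbered and lettered Itga, Itgb, Lama, Lamb and Lamc genes with Itga8 left out, and gave 36 of its 34682 gene symbols. Of these, 17 encode integrin alpha subunits, 8 encode integrin beta subunits and 11 encode laminin chains. RNA was sequenced from 2 mutant and 2 wild-type libraries, with replicate numbers 1 and 2 in each group. Mutant ovaries overexpressed Sall1, a zinc finger transcription factor, from a BAC (a large genomic insert cloned in bacteria) that carries the regulatory elements of Wt1 with the Sall1 coding sequence in place of the gene. The BAC had been integrated by piggyBac into female embryonic stem cells. A general statement in the study's methods gives a background of C57BL/6J, or a hybrid of C57BL/6J and 129. The section on the cells that received the BAC derives them from C57BL/6J blastocysts. Mice were then made from these cells by morula aggregation, and Wt1 drives expression in somatic cells of the gonad. Wild-type ovaries carried no BAC, and the count columns name them B6, whereas the study's methods name CD1 mice as the source of wild-type gonads for sequencing. The study's results call the controls littermates, so the strain of the controls is unclear, and a difference of strain and of genotype cannot be told apart. The stem cell clones and the number of embryos behind each library are not given in the sources used here.

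Laminins are secreted heterotrimers of an alpha, a beta and a gamma chain that polymerise into the sheet of the basement membrane. Integrins are transmembrane heterodimers of an alpha and a beta subunit, and they link laminins, collagens, fibronectin or counter-receptors on other cells to the cytoskeleton. In the fetal gonad, basement membranes lie under the surface epithelium, around vessels and around groups of germ cells with their supporting cells, and leukocytes and platelets bring integrins of their own.

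Library totals lay between 11036313 and 17869840 counts, and both mutant libraries were shallower than both wild-type libraries. The detection floor of 3 counts amounts to between 0.17 and 0.272 CPM (counts scaled to 1e+06 per library, on library sizes normalised by the TMM method) and covers counting error only. Sall1 had 1243 and 1445 counts in mutant and 279 and 223 counts in wild-type ovaries, so the targeted gene followed the labels. Wt1, whose elements drive the BAC, had a log2 fold change of 0.032 (standard error, SE, 0.10). The germ cell markers (5 genes, among them Ddx4 and Dazl) summed to between 1349 and 1554 CPM, and the markers of supporting and surface cells (6 genes, among them Wt1 and Foxl2) to between 667 and 782 CPM. Members of the second list differed in direction. Upk3b and Lhx9 were lower in the mutant with DESeq2 (adjusted p = 0.00547 and 0.024), did not pass with edgeR (adjusted p = 0.301 and 0.407) and passed with edgeR once the replicate number was added as a block (adjusted p = 0.00258 and 0.00269). Foxl2, a factor of ovarian supporting cells, had 46.3 and 44.1 CPM in mutant against 28.0 and 32.0 CPM in wild-type ovaries (edgeR adjusted p = 0.301, and 0.00878 with the block), while Fst and Krt19 had log2 fold changes of 0.14 and -0.014. The 6 genes listed for duct and tubules of the neighbouring mesonephros summed to between 159.5 and 188 CPM. Most of this came from Emx2 with between 129 and 152 CPM, so the sum says little about the others. Among the others Pax8 had 13.9 and 17.7 CPM in mutant against 9.07 CPM in both wild-type ovaries (edgeR adjusted p = 0.372, and 0.0198 with the block). Cdh16 and Ret had log2 fold changes of 1.10 (SE 0.77) and -0.51 (SE 0.25). Those of Lhx1 and Pax2 were 0.42 (SE 0.34) and -0.45 (SE 0.47). Their part in the members' values was not tested. Markers of smooth muscle and pericytes summed to between 82.0 and 133 CPM. Markers of skeletal muscle, which is no part of the ovary, summed to 33.7 and 5.18 CPM in mutant and to 217 and 8.78 CPM in wild-type libraries, so wild-type replicate 1 stood apart. The libraries of 1 group differed by more than sampling noise, and because nothing in the labels says that they came from separate animals, p-values measure only the spread between these libraries.

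Of the 36 members, 32 passed the filter on low counts and were tested. To compare levels between genes, CPM were divided by the length of the longest protein-coding transcript in kilobases (GENCODE M1 on NCBIM37, which is mm9, the build named in the submitters' processing notes). Among laminin chains of the E13.5 ovary, Lama1, Lamb1 and Lamc1, the chains of the trimer alpha-1, beta-1, gamma-1, were highest in their classes. Lama1 held from 48.7% to 51.8% of the alpha chain level and Lama4 from 26.5% to 31.3%. RNA levels do not tell which trimers are formed. Lamc1, the common gamma chain, was highest in every library, between 49.6 and 51.9 CPM per kilobase, and made up from 93.2% to 96.2% of the level of the 3 gamma chains. Lamb1 followed closely, between 44.6 and 48.5 CPM per kilobase. The level of Lamb1 per length was between 0.892 and 0.978 times that of Lamc1. Lama1, the alpha chain of early embryonic basement membranes, was lower than both, between 20.7 and 22.1 CPM per kilobase, and its ratio to Lamc1 stayed between 0.414 and 0.426 in the 4 libraries.

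The other laminin chains formed a descending series. Lamb2, the beta chain that replaces beta-1 in some mature basement membranes, lay between 16.3 and 19.7 CPM per kilobase. Lama4, a chain of vessel and stromal basement membranes, lay between 10.6 and 13.6 CPM per kilobase. Lama5, the broadly used epithelial alpha chain, lay between 4.74 and 5.60, and Lama2, best known from muscle, between 2.08 and 2.41 on the same scale. Down to Lama3, between 1.38 and 1.75 CPM per kilobase, each chain lay below the whole range of the one before it. Below Lama3 the order was not resolved, since Lamc3 overlapped both Lama3 and Lamb3. Lama3 and Lamb3 are chains of epithelial laminin found at hemidesmosomes, and Lamb3, with 13 to 36 counts per library, was the lowest laminin chain on average. Summed over all 11 chains, laminin RNA was 163 and 160.3 CPM per kilobase in mutant and 159.6 and 162 in wild-type ovaries, and the groups overlapped.

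**Figure D1:**
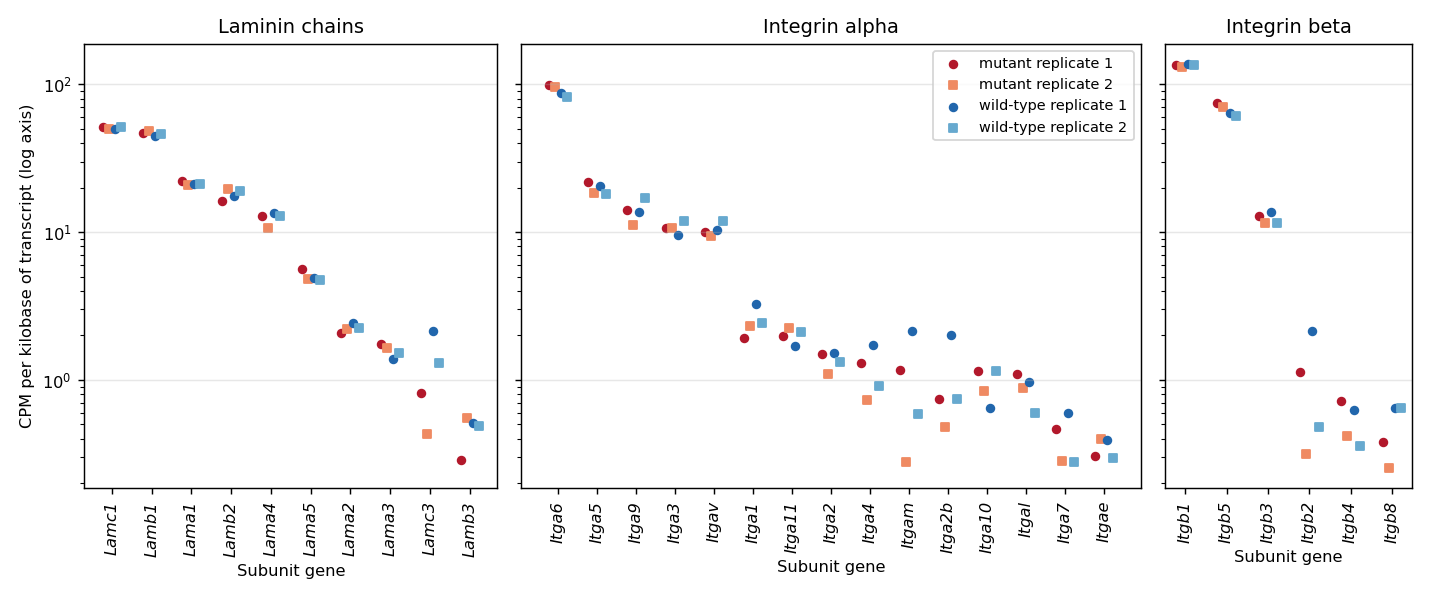
Levels of the tested integrin and laminin genes in each library, as CPM per kilobase of transcript on a log axis. Each point is 1 library, with mutant libraries in red shades and wild-type libraries in blue shades, and genes are ordered by mean level within each family. Lamc1, Itga6 and Itgb1 lead their families in every library, and the points of a gene spread more widely towards the low levels.

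**Figure D2:**
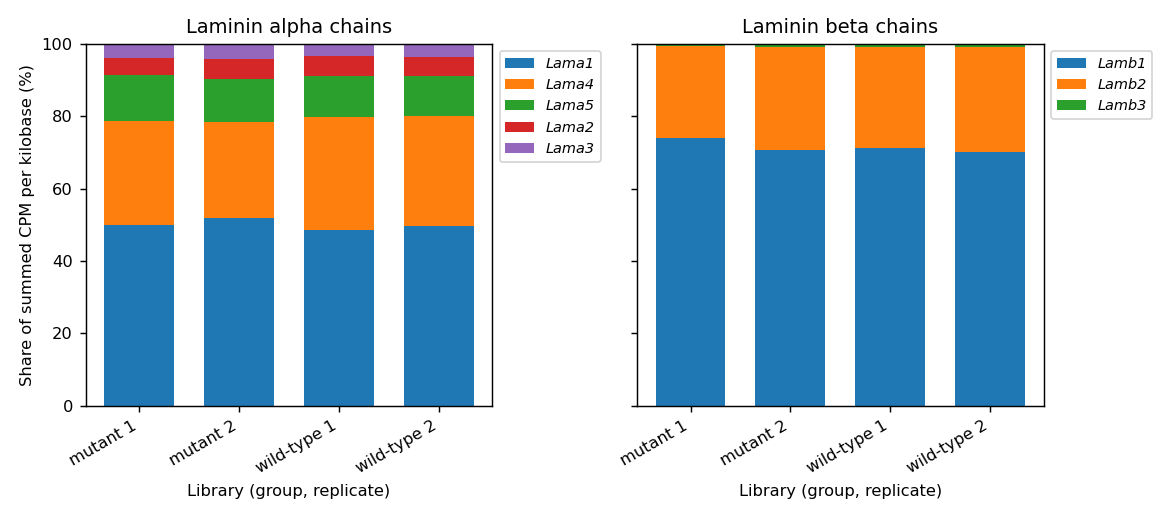
Share of each chain in the summed CPM per kilobase of the laminin alpha chains (left) and beta chains (right), in percent, as stacked bars for each of the 4 libraries. Lama1 and Lamb1 make up the largest share of their class in each library, and Lamb1 holds between 70.3% and 73.95% of the beta chains.

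Among the integrins the leading subunits were Itgb1, the common beta subunit, and Itga6, an alpha subunit of laminin receptors that is also carried by germ cells. Itgb1 lay between 130.2 and 137 CPM per kilobase and made up from 60.2% to 64.3% of the level of the 8 beta subunits. Itgb5, a partner of Itgav in vitronectin receptors, came next, between 61.5 and 74.6 CPM per kilobase. Itgb3, another partner of Itgav and, in platelets, of Itga2b, lay between 11.5 and 13.7 CPM per kilobase, and the remaining beta subunits reached at most 2.15. Itga6 lay between 81.6 and 98.4 CPM per kilobase. It exceeded the other laminin-binding alpha subunits Itga3, between 9.58 and 11.8, and Itga7, a muscle subunit between 0.280 and 0.601 on the same scale. The fibronectin receptor subunit Itga5 ranked next to Itga6 among the alpha subunits, between 18.2 and 21.7 CPM per kilobase. Itga9, Itga3 and Itgav followed with overlapping ranges between 9.49 and 16.9. The collagen-binding subunits Itga1, Itga11, Itga2 and Itga10 were low, from 0.645 to 3.25 CPM per kilobase in any library.

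The comparison of mutant with wild-type ovaries asked whether any of these subunits responded to Sall1. By the quasi-likelihood test of edgeR, with p-values adjusted after Benjamini and Hochberg over the 15442 genes tested, 0 of the 32 tested members passed the threshold of 0.05, beside 0.0583% of all genes. The smallest adjusted p of a member was 0.467, that of Lamc3 (edgeR). At an unadjusted p under 0.05, 1 member was higher (Itgb5) and 2 were lower (Lamc3 and Itgb8) in the mutant ovaries, which is 9.38% of the members tested beside 5.69% of all genes. DESeq2, the tool of the study's methods, called 0 members, beside 0.694% of the genes for which it gave an adjusted p. The median log2 fold change of the members was -0.026, against -0.00088 for all genes tested. It was 0.0051 for the laminin chains, -0.12 for the integrin alpha subunits and -0.039 for the beta subunits. A log2 fold change within 0.25 of zero was found for 22 of the 32 members, or 68.8%, and for 75.3% of all genes tested.

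The most abundant laminin chains and Itgb1 differed little between the genotypes. Itga6 and Itgb5, also among the most abundant, had log2 fold changes of 0.20 and 0.22 and are described below. Lamc1 had 396 and 378 CPM in mutant against 381 and 390.2 CPM in wild-type ovaries, and the log2 fold change was 0.0051 (SE 0.085). Lama1 had 210.4 and 197 CPM in mutant against 201 and 202 CPM in wild-type ovaries. Lamb1 had 272 and 281 CPM in mutant against 258 and 266 CPM in wild-type ovaries, which is higher in both mutant libraries with a log2 fold change of 0.077 (SE 0.084, edgeR adjusted p = 1.00). Itgb1 had 518 and 497 CPM in mutant against 523 and 513 CPM in wild-type ovaries, and the groups overlapped. Lamb2, Lama5, Itga5, Itga3 and Itgb3 also overlapped between the groups, with log2 fold changes between -0.049 and 0.11.

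Both mutant libraries lay below both wild-type libraries for 7 members, or 21.9%, where this was so for 15.1% of all genes tested. These were Lamc3, Itgb8, Itga2b, Itga1, Itgav, Lama4 and Lama2. The reverse held for 5 members, or 15.6%, beside 15.8% of all genes tested, among them Itga6, Itgb5, Lamb1 and Lama3. The other 20 overlapped. Wild-type replicate 1, the library with the most muscle marker RNA, was the highest library for 13 of the 32 members, or 40.6%, beside 22.5% of all genes tested, and its part in the lower values was not tested. Taking each replicate number on its own, 12 members were lower in both mutant libraries than in the wild-type library of the same number and 10 were higher in both, which is 37.5% and 31.3% of the members beside 27.3% and 26.5% of all genes tested.

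**Figure D3:**
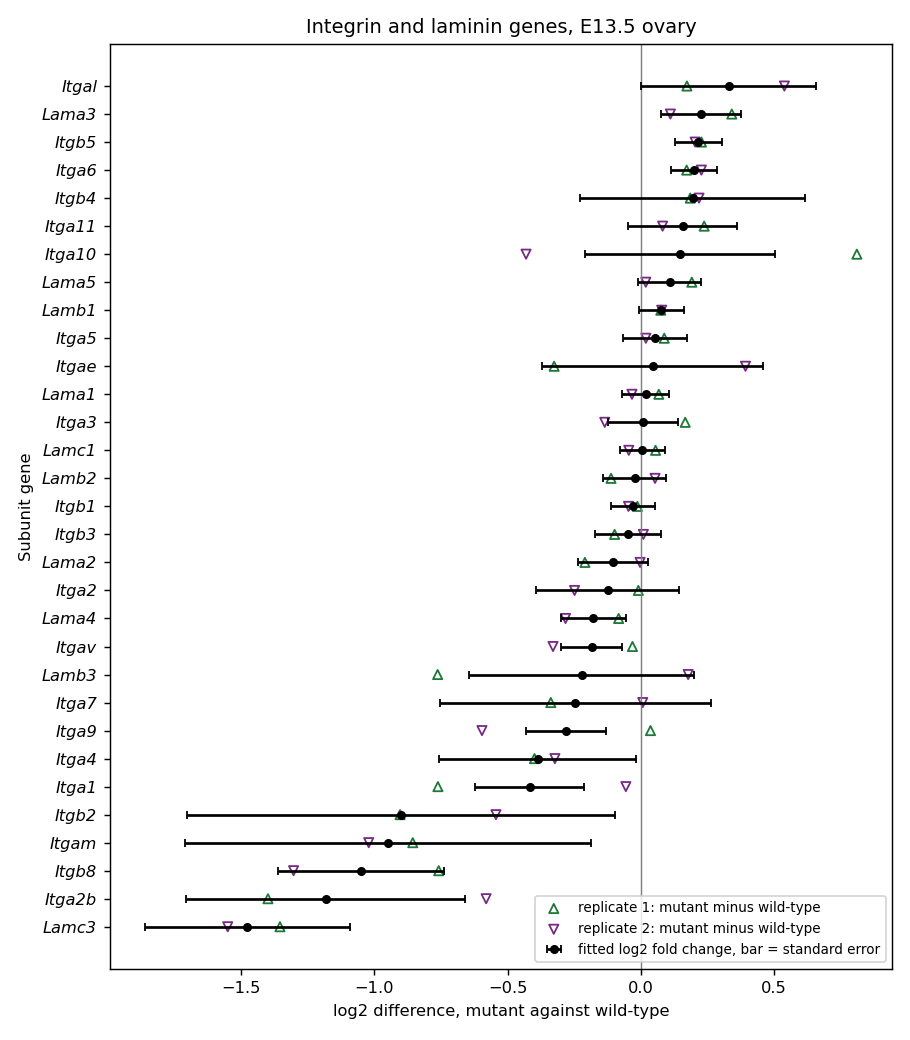
Difference between mutant and wild-type ovaries for tested members on the log2 scale, ordered by size. Black points are fitted log2 fold changes with standard errors as bars, and open triangles are the differences between the mutant and the wild-type library of replicate 1 (pointing up) and replicate 2 (pointing down). Most members lie near zero, and Lamc3, Itga2b, Itgb8, Itgam and Itgb2 lie furthest to the left, with both triangles below zero.

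Lamc3 showed the largest difference among the members. It encodes the gamma-3 laminin chain, a minor gamma chain known from reproductive organs, skin, brain and retina, and lies on chromosome 2 from 31742811 to 31802059 (NCBIM37, plus strand). It had 4.81 and 2.53 CPM in mutant against 12.5 and 7.65 CPM in wild-type ovaries, from between 38 and 215 counts per library. Both mutant libraries were below both wild-type libraries, although the libraries of each group also differed among themselves. The fitted level was 2.78-fold lower in mutant ovaries, and the log2 fold change was -1.48 (SE 0.38, edgeR adjusted p = 0.467). The difference was -1.35 on the log2 scale between the libraries of replicate 1 and -1.55 between those of replicate 2. Lamc3 held at most 1.497% of the gamma chain level per length in mutant and at least 2.43% in wild-type ovaries. It did not pass with DESeq2 either (adjusted p = 0.0855). It passed with the replicate number added as a block (adjusted p = 0.00165, edgeR), where 2.49% of all genes passed and Lamc3 was the only member to do so. With each library left out, its log2 fold change lay between -1.99 (without mutant replicate 1) and -1.07 (without mutant replicate 2).

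Itgb8 was the other lower member. It encodes the beta-8 subunit, which pairs with Itgav to bind the latent form of TGF-beta, and lies on chromosome 12 from 120396495 to 120477275 (NCBIM37, minus strand). It had 35 and 32 counts in mutant against 94 and 96 counts in wild-type libraries, or 3.18 and 2.13 CPM against 5.46 and 5.44 CPM. The wild-type libraries were nearly equal and both mutant libraries were below them, with a fitted level 2.07-fold lower. The log2 fold change was -1.05 (SE 0.31, edgeR adjusted p = 0.577), and it was -0.76 between the libraries of replicate 1 and -1.30 between those of replicate 2. Its partner Itgav, the alpha subunit shared by the vitronectin and TGF-beta binding integrins, had 71.1 and 66.9 CPM in mutant against 72.7 and 84.2 CPM in wild-type ovaries, and the log2 fold change was -0.18 (SE 0.11, edgeR adjusted p = 1.00). In bulk ovaries fewer cells of a type and less RNA per cell cannot be told apart, for these and for all other members.

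Itgb5 and Itga6 leaned the other way by small amounts. Itgb5 had 231 and 219 CPM in mutant against 197 and 190.2 CPM in wild-type ovaries, and the log2 fold change was 0.22 (SE 0.087, edgeR adjusted p = 0.855). Itga6 had 424 and 412 CPM in mutant against 377 and 352 CPM in wild-type ovaries, and the log2 fold change was 0.20 (SE 0.087, edgeR adjusted p = 0.899). For both genes the mutant libraries were above the wild-type libraries in each replicate number, by between 0.17 and 0.23 on the log2 scale. The ratio of Itga6 to Itgb1 per length was 0.725 and 0.734 in mutant and 0.637 and 0.607 in wild-type ovaries. Itgb1 itself had a log2 fold change of -0.030, so this ratio adds little to the values of Itga6. Lama3 was also above the wild-type range, with 18.2 and 17.1 CPM in mutant against 14.3 and 15.8 CPM in wild-type ovaries and a log2 fold change of 0.23 (SE 0.15). Its partner Lamb3 overlapped between the groups, with a log2 fold change of -0.22 (SE 0.42).

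Lama4 had 77.4 and 64.1 CPM in mutant against 82.0 and 78.0 CPM in wild-type ovaries, and Itga1, a collagen receptor subunit of vessels and stroma, had 11.4 and 13.9 CPM against 19.5 and 14.5 CPM. Their log2 fold changes were -0.18 (SE 0.12) and -0.42 (SE 0.20), with edgeR adjusted p-values of 1.00 and 0.984. Without mutant replicate 2 the value of Lama4 was -0.049, and without wild-type replicate 1 that of Itga1 was -0.18. The 8 endothelial markers summed to 473 and 452 CPM in mutant and to 495 and 515 CPM in wild-type ovaries. These sums did not overlap, but without Kdr, a receptor for VEGF with 95.1 and 90.5 CPM against 129 and 126 CPM, a choice made after seeing the data, they were 378 and 361 CPM in mutant and 367 and 389 CPM in wild-type ovaries, which overlap. Pecam1, Cdh5 and Emcn had log2 fold changes between 0.0083 and 0.027, and the other 5 markers were negative. Kdr had -0.46, Cldn5 -0.35, Tie1 -0.23, Esam -0.22 and Tek -0.021. Of the 8 markers, 4 were lower in the mutant in both replicate numbers, or 50%, beside 27.3% of all genes tested. The reverse held for 0 markers, beside 26.5% of all genes tested. In all libraries together 0 of the 8 markers were at zero. The part of these markers in the values of Lama4 and Itga1 was not tested.

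Several members with roles in blood cells or muscle were higher in replicate 1 than in replicate 2 of both genotypes. Itgam and Itgb2, which together form the integrin Mac-1 of myeloid cells, had 5.63 and 3.36 CPM in mutant replicate 1 and 10.3 and 6.39 CPM in wild-type replicate 1. In mutant replicate 2 they had 1.33 and 0.930 CPM, and in wild-type replicate 2 they had 2.83 and 1.42 CPM. Both genes were thus higher in the libraries of replicate 1 than in those of replicate 2 whatever the genotype, and per length their ratio stayed between 0.883 and 1.24. Itga2b, the platelet subunit alpha-IIb, had 2.54 and 1.66 CPM in mutant against 6.92 and 2.55 CPM in wild-type ovaries, so that wild-type replicate 1 alone was far above the rest. Its log2 fold change was -1.18 (SE 0.52, edgeR adjusted p = 0.905), and without wild-type replicate 1 it was -0.29. The genotypes overlapped for Itgam and Itgb2. For Itgam and Itgb2 the log2 fold changes were -0.95 (SE 0.76) and -0.90 (SE 0.80), and without wild-type replicate 1 they turned to 0.26 and 0.56. That setting compares both mutant libraries with wild-type replicate 2 alone, and so mixes replicate number with genotype. Between libraries of the same replicate number, both genes were lower in the mutant. The log2 differences in replicates 1 and 2 were -0.86 and -1.02 for Itgam, and -0.90 and -0.54 for Itgb2. With the replicate block the log2 fold changes were -0.95 (SE 0.26) and -0.81 (SE 0.33).

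The marker lists gave a mixed picture beside these genes. The 7 megakaryocyte and platelet markers summed to 5.90 and 5.32 CPM in mutant against 22.0 and 7.65 CPM in wild-type ovaries, and 6 of the 7 were highest in wild-type replicate 1. Of the macrophage and other leukocyte markers, 7 of 9 had counts, while Adgre1 and its older name Emr1 were both at 0. This list summed to 67.9 and 47.8 CPM in mutant and 58.6 and 47.4 CPM in wild-type libraries, a narrower range than that of Itgam or Itgb2. The 6 erythroid markers summed to 2870 and 802 CPM in mutant and to 3140 and 1550 CPM in wild-type libraries. Like the level of Itgam, this sum was higher in replicate 1 of each genotype. Nearly all of it came from Hbb-y, with 2762 and 774 CPM in mutant and 3004 and 1488 CPM in wild-type libraries. Gata1 went the other way in the mutant, with 3.72 CPM in replicate 1 and 4.59 CPM in replicate 2. Hba-a1 had 0 or 1 counts per library. The part of these cell types in the values of Itgam, Itgb2 and Itga2b was not tested.

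**Figure D4:**
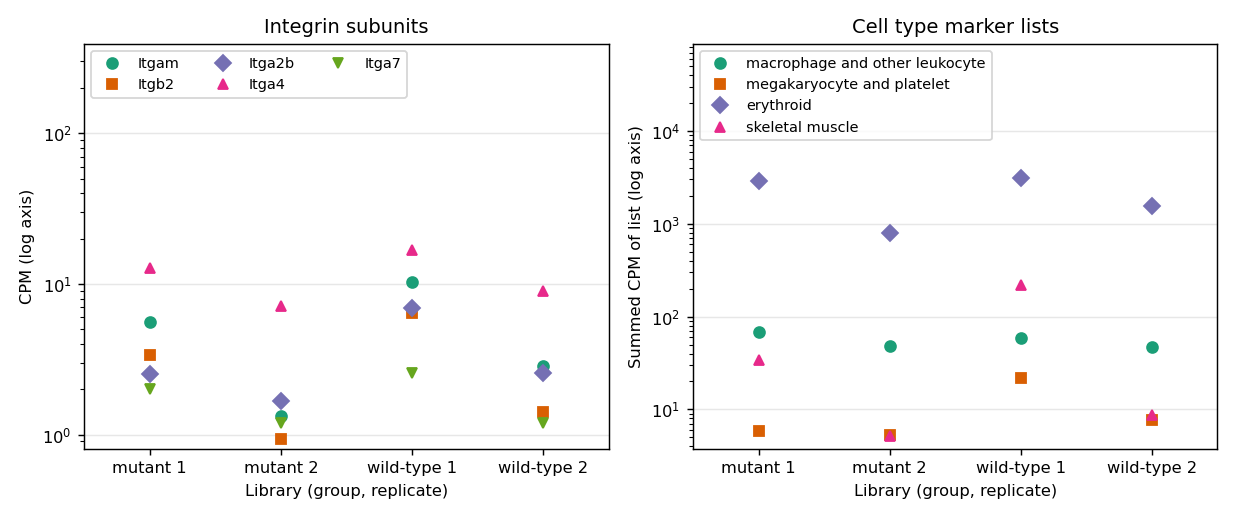
Left, CPM of Itgam, Itgb2, Itga2b, Itga4 and Itga7 in each library; right, summed CPM of 4 lists of cell type markers, both on log axes with 1 point per gene or list and library. The integrin genes are highest in wild-type replicate 1, as are the platelet, erythroid and muscle lists, while the leukocyte list is between 47.4 and 67.9 CPM throughout.

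Itga2b and Itgam are expressed in megakaryocytes and myeloid cells under factors of the ETS family. Their upstream sequence is shown as an example. Both were highest in wild-type replicate 1, but they are 2 of 13 such members among the 32 tested, so this does not single them out. They did not follow each other closely across the libraries. On the log2 scale, replicate 2 minus replicate 1 was -0.58 in mutant and -1.39 in wild-type libraries for Itga2b. For Itgam it was -1.98 and -1.81. The sequences are the 250 bases before the annotated start in RefSeq, 5′ to 3′ on the strand of the gene, at chr11:102469884-102470133 (minus strand) for Itga2b and chr7:128062390-128062639 (plus strand) for Itgam on GRCm38.p6. Capitals mark the string GAGGAA, a form of ETS site, on either strand, and other forms were not searched or marked.
Itga2b: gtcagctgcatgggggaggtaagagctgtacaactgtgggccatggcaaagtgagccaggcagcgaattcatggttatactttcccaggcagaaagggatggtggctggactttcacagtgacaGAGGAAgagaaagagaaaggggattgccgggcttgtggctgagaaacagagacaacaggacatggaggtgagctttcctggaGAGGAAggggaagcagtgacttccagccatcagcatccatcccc
Itgam: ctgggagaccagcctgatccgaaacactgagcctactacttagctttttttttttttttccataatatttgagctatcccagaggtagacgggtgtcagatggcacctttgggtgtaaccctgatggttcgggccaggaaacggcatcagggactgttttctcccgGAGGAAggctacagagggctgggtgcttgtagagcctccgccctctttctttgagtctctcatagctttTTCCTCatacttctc
Each holds 2 matches, both on the strand of the gene in Itga2b and 1 on each strand in Itgam. The motif occurs in 23.3% of the 32851 windows of the same length in the table and in 13 of the 22 members found there, and these matches describe letters, not binding.

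The remaining members did not pass and are given by their differences. Itga4 and Itga9, the subunits that bind fibronectin variants, VCAM1 and tenascin, had log2 fold changes of -0.39 and -0.28. Itga4 was highest in wild-type replicate 1 with 16.9 CPM, without which its log2 fold change was 0.14. Between libraries of the same replicate number Itga4 was lower in the mutant, with log2 differences of -0.40 and -0.32. Itga7 had between 18 and 44 counts per library, and its highest library was again wild-type replicate 1, the one with the most RNA of the muscle markers, without which its log2 fold change turned from -0.25 to 0.40. Itgal, the alpha subunit of the lymphocyte integrin LFA-1, and Itgae, of the integrin that binds E-cadherin, had log2 fold changes of 0.33 and 0.045. Itgb4, the hemidesmosome subunit that pairs with Itga6, had between 39 and 67 counts per library and a log2 fold change of 0.19 (SE 0.42). Itga10, Itga11 and Itga2 had log2 fold changes between -0.12 and 0.16. The 4 members under the filter were Itgad, with 1 to 3 counts per library, Itgax, with 0 to 8, Itgb7, with 5 to 22, and Itgb6, with 0 counts in both mutants and 8 and 1 counts in the wild types. These 4 genes were not tested in the fit with the filter, so differences in them were not assessed there. A separate row named Lamb1-1 held 1 or 2 counts per library and was not counted as a member.

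Neighbouring genes of the same biology were examined through lists written from general knowledge. Of 25 other basement membrane genes, such as nidogens, perlecan and collagen IV chains, all were tested, and 0 passed with edgeR or with DESeq2. At an unadjusted p under 0.05 with edgeR, 3 were higher and 0 were lower in the mutant. This is 12% of the list, beside 5.69% of all genes tested. The median log2 fold change of the list was -0.039. Of 39 genes of the adhesion machinery inside the cell, such as talins, kindlins and focal adhesion kinase, 38 were tested and 0 passed with either tool. At an unadjusted p under 0.05 with edgeR 1 was lower, or 2.63% of those tested, beside the same 5.69% of all genes. The median log2 fold change of this list was -0.048. Of 28 genes listed for ligands of integrins other than laminins, or for proteins near them, 0 passed with edgeR, beside 0.0583% of all genes. At an unadjusted p under 0.05 with edgeR, 3 were higher and 4 lower, or 25% of the list, beside 5.69% of all genes. With DESeq2 2 were lower, where 0.694% of the genes with an adjusted p were called. With the replicate block in edgeR, 1 gene of this list passed as higher (Ltbp1) and 4 as lower (Thbs2, Tgfbi, Emilin1 and Vwf). In that setting 2.49% of all genes passed.
The 2 called by DESeq2 were Thbs2, a matricellular thrombospondin, and Tgfbi, a matrix protein of collagen networks. Thbs2 had 87.9 and 86.1 CPM in mutant against 140.7 and 134 CPM in wild-type ovaries, and the log2 fold change was -0.66 (SE 0.090, adjusted p = 0.118 with edgeR and 0.000207 with DESeq2). Tgfbi had 208 and 198 CPM against 288 and 293 CPM, and the log2 fold change was -0.52 (SE 0.085, adjusted p = 0.169 with edgeR and 0.00163 with DESeq2). For both ligands the mutant libraries lay below the wild-type libraries in each replicate number.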

How the data were processed

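RNA was measured in 4 libraries of E13.5 mouse ovaries. The authors mapped reads with STAR 2.6.1d and deposited raw counts per gene made with summarizeOverlaps, without normalization or pooling; mm9 is named in the submitters' processing notes, and the annotation and the handling of strands are not given in the sources used here, so genes overlapping on opposite strands are uncertain. Columns were matched to libraries by genotype and replicate number, with 0 columns unused.

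In R 4.3.3, edgeR 4.0.16 (TMM, filterByExpr, quasi-likelihood test, Benjamini-Hochberg adjustment, threshold 0.05) was fitted to all 4 libraries with genotype as the only factor. DESeq2 1.42.0, other filters and size factors, a replicate block and leaving out each library were the alternatives. Standard errors are the fold change divided by the root of F. Differences by replicate number use log2 CPM with a prior count of 2. Libraries of the same replicate number, which also carry neighbouring library numbers in the file headers, deviated together from their group means (correlation across genes 0.481), but no label says that they share a litter or batch.

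Members and lists were chosen with earlier results of these data known. Tested members are named, apart from items not reported here; values in every library are given for members with an unadjusted p under 0.05 or a call in an alternative, for Itgb1, Itgav, Itga6, Lamb1, Lamc1, Lama1 and Itga2b, and for others (among them Lama4, Itga1, Itgam, Itgb2, Itgb5) chosen after their values were seen. List genes are named, with the same exception, where they passed with edgeR or DESeq2. Others were chosen after their values were seen (Foxl2, Fst, Krt19, Emx2, Pax8, Pax2, Lhx1, Cdh16, Ret, Kdr, Pecam1, Cdh5, Emcn, Cldn5, Tie1, Esam, Tek, Hbb-y, Gata1, Hba-a1, Ltbp1, Emilin1, Vwf). Promoter sequences are from a RefSeq table in which 22 of the 36 members were matched.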

Additional observations from a re-analysis of the deposited data

How the results depend on the processing

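The call on Lamc3 depended on the setting. The count of members called, 0, became 1 (Lamc3) with the replicate block and ranged from 0 to 1 with each library left out, where the 1 came without mutant replicate 1. It stayed at 0 with RLE size factors, with either other filter and with DESeq2. All genes called, 9, became 385 with the replicate block, 105 with DESeq2, 28 with no filter and 19 with at least 10 counts in every library, and ranged from 4 to 130 with each library left out. A group left with 1 library is assumed to vary like the other. The median log2 fold change of the members, -0.026, was -0.034 with no filter and ranged from -0.089 to 0.013 with each library left out, that of the laminin chains from -0.012 to 0.036 and that of the integrin subunits from -0.23 to 0.082. With other settings on all libraries, 2 of 160 member values changed sign: Itga3 to -0.0011 and Lamc1 to -0.0033, both with no filter.

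With each library left out, 16 of the 32 members kept their sign, among them Lamc3 (-1.99 to -1.07), Itgb8 (-1.36 to -0.78), Itga6 and Itgb5, and 16 did not. Their log2 fold changes ranged from -2.30 to 0.26 for Itgam, -2.06 to 0.56 for Itgb2, -0.85 to 0.14 for Itga4, -0.69 to 0.40 for Itga7, -0.79 to 0.15 for Lamb3, -0.21 to 0.63 for Itga10, -0.24 to 0.66 for Itgb4, -0.36 to 0.087 for Itga2, -0.16 to 0.27 for Itgae, -0.13 to 0.18 for Itga3, -0.17 to 0.11 for Lamb2, -0.066 to 0.17 for Itga5, -0.16 to 0.082 for Itgb3, -0.0075 to 0.21 for Lama5, -0.031 to 0.062 for Lama1 and -0.029 to 0.036 for Lamc1. The cause was not tested. Low counts limit Lamb3, Itga7 and Itgae most, each with at most 44 counts in any library.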
